A study of Mus musculus with 16 samples.

Results

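The core circadian clock was followed as 10 genes matched by symbol to the gene identifiers of the count files, out of 55359 identifiers: the activators Arntl, Clock and Npas2, and the repressors Per1, Per2, Per3, Cry1, Cry2, Nr1d1 and Nr1d2. All 10 passed the filter on low counts in both organs, with between 68 and 3639 read pairs per library. The libraries came from whole ovary and whole kidney of 21-day-old wild-type CBAF1 females, with 4 libraries in each of 4 groups. In each organ, 1 group received PT-2385, an inhibitor of the hypoxia-inducible factor HIF-2α (gene Epas1), at 7.5 mg/kg by intraperitoneal injection every 12 h for 4 days, and the other received the vehicle, 5% DMSO in saline, on the same schedule. All mice, controls included, were given 5 IU PMSG and, 48 h later, 5 IU hCG, a pair of hormones that induce follicle growth and ovulation, and tissue was taken 13 h after hCG. The mice were kept in 12 h light and 12 h dark. The time of day of collection was not given in the sources used here, so the phase of the clock that the libraries sample is unknown. The labels do not say that libraries came from separate animals, so p-values measure the spread between these libraries.

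The molecular clock is a feedback loop of transcription. BMAL1, the product of Arntl, pairs with CLOCK or its relative NPAS2 and binds E-box sequences to switch on the PER, CRY and REV-ERB genes. PER and CRY proteins then block the activators, and the REV-ERB proteins, from Nr1d1 and Nr1d2, repress Arntl through the ROR element that they share with the activating ROR receptors. Because of this wiring Arntl and the REV-ERB genes peak at opposite times of day, Cry1 is itself repressed by REV-ERB, and Per1 and Per2 also answer directly to glucocorticoid and other hormone signals. BMAL1, CLOCK and NPAS2 belong to the same bHLH-PAS protein family as HIF-2α, and the ovary and the kidney both hold clocks of their own.

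Promoter windows from RefSeq (GRCm38.p6, 250 bases before to 50 after a start site) were available for 9 of the 10 genes, all but Per2, and stretches are shown for the genes on which the results turn because they carry the elements just described. Capitals mark the motif named with each stretch, and each is written 5′ to 3′ on the gene's strand. Arntl (second of 2 windows) holds a ROR element, Cry1 an E-box CACGTG and the related AACGTG, Nr1d1 an AACGTG, Per1 an E-box and a D-box, and Per3 a pair of D-boxes, the element bound by DBP, TEF and HLF and by the repressor NFIL3. Npas2 holds ACGTG, the core of the HIF response element.
Arntl, chr7:113207528-113207557, ROR element: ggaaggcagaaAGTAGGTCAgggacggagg
Cry1, chr10:85185095-85185144, E-box and AACGTG: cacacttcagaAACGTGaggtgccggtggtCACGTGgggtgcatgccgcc
Nr1d1, chr11:98775378-98775427, AACGTG: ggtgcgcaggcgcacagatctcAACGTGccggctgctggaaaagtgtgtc
Per1, chr11:69098774-69098823, E-box: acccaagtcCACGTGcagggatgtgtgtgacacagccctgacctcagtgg
Per1, chr11:69098909-69098948, D-box: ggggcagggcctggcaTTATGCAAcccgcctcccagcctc
Per3, chr4:151044806-151044880, D-boxes: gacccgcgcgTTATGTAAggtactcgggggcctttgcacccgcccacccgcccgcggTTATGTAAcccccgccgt
Npas2, chr1:39194042-39194081, HIF core: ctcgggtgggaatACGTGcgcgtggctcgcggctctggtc
The E-box of Cry1 began 60 bases before its start site and that of Per1 166 bases before, the D-box of Per1 24 bases before, and the ROR element of Arntl lay after its start site. Both strands were searched. Of 32851 promoter windows, 7.15% held CACGTG, 4.68% held CACGTT or its complement AACGTG, 1.78% a D-box (TTATGTAA, TTACGTAA or TTATGCAA), 1.45% a ROR element (ANTAGGTCA or ANTGGGTCA), 1.79% the cyclic AMP element TGACGTCA and 19.6% the HIF core ACGTG, which also lies inside every CACGTG and AACGTG. No member window held TGACGTCA, and the windows of Clock and Nr1d2 held none of these motifs, nor did the first window of Arntl and the second of Per1, while Cry2 held AACGTG. A match describes the sequence and does not show that a factor binds there.

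Libraries held 12.7 to 43.3 M assigned read pairs (1 M is 1000000). The organs matched their labels. Foxl2, a granulosa cell factor, and Zp3, an oocyte coat protein, had 0 reads in the kidney libraries. The sum of 5 kidney markers was at most 0.375 counts per 1000000 read pairs (CPM) in PT-2385 ovaries. It was at most 51.8 CPM in vehicle ovaries, against 17600 CPM or more in kidneys. The 51.8 CPM was in vehicle replicate 1, where the marker Kap read 33.9 CPM, against 0.119 to 0.806 CPM in the other vehicle ovaries. Ovary vehicle replicate 3 had the lowest Malat1, a nuclear RNA, at 629 CPM against 1046 to 1956 CPM in the other ovaries, of which vehicle replicate 2 was the highest, and its file carries the number 5. Kidney PT-2385 replicate 3 was the deepest library and the name of its file holds another flow-cell code. Epas1 itself had a log2 fold change of -0.05 in ovary (SE 0.072) and 0.01 in kidney (SE 0.049), which is no check of dosing because the drug acts on the protein.

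In vehicle mice the organs held their clock genes at different levels. Levels are given here as fragments per kilobase of exon per 1000000 read pairs (FPKM), scaled over all 16 libraries, so that genes can be compared. In vehicle ovary the order was Arntl at 16.2 ± 1.22 FPKM (SD, n = 4), Per1 at 15.6 ± 0.733, Cry1 at 13.3 ± 2.14, Clock at 10.2 ± 0.212, Nr1d1 at 9.62 ± 2.87, Nr1d2 at 8.92 ± 1.24, Cry2 at 7.04 ± 0.190, Npas2 at 2.88 ± 0.269, Per2 at 2.36 ± 0.222 and Per3 at 1.54 ± 0.455. Each gene from Arntl to Nr1d2 overlapped its neighbour in that order in the range of its libraries, as did Npas2 and Per2, while Nr1d2 and Cry2, Cry2 and Npas2, and Per2 and Per3 did not overlap. Vehicle kidney put the REV-ERB genes first, Nr1d1 at 27.2 ± 6.78 FPKM (SD, n = 4) and Nr1d2 at 18.1 ± 2.09, followed by Arntl at 10.4 ± 1.14, Clock at 7.44 ± 0.728, Per1 at 7.29 ± 1.51, Npas2 at 5.88 ± 0.526, Cry2 at 4.55 ± 0.152, Per3 at 3.62 ± 0.454, Per2 at 2.39 ± 0.210 and Cry1 at 1.94 ± 0.550. There the overlapping neighbours were Nr1d1 and Nr1d2, Clock and Per1, Per1 and Npas2, and Per2 and Cry1.

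Cry1, which delays the loop by blocking the activators late in the cycle, differed most in level between the vehicle organs of the 10 genes, at 6.83 times the kidney level in ovary. Per1 was at 2.14 times, Arntl at 1.56, Cry2 at 1.55 and Clock at 1.37 times the kidney level in ovary. Kidney held 2.83 times the ovary level of Nr1d1, 2.35 times that of Per3, 2.04 times that of Npas2 and 2.02 times that of Nr1d2. For these 9 genes the 4 ovary libraries did not overlap the 4 kidney libraries. The ratio for Per2 was 0.987 (ovary over kidney) with overlapping libraries, and 1.18 without TMM scaling. The ovaries were extracted on Monarch columns and the kidneys in Trizol, so organ and isolation cannot be told apart and these levels were not tested.

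**Figure D1:**
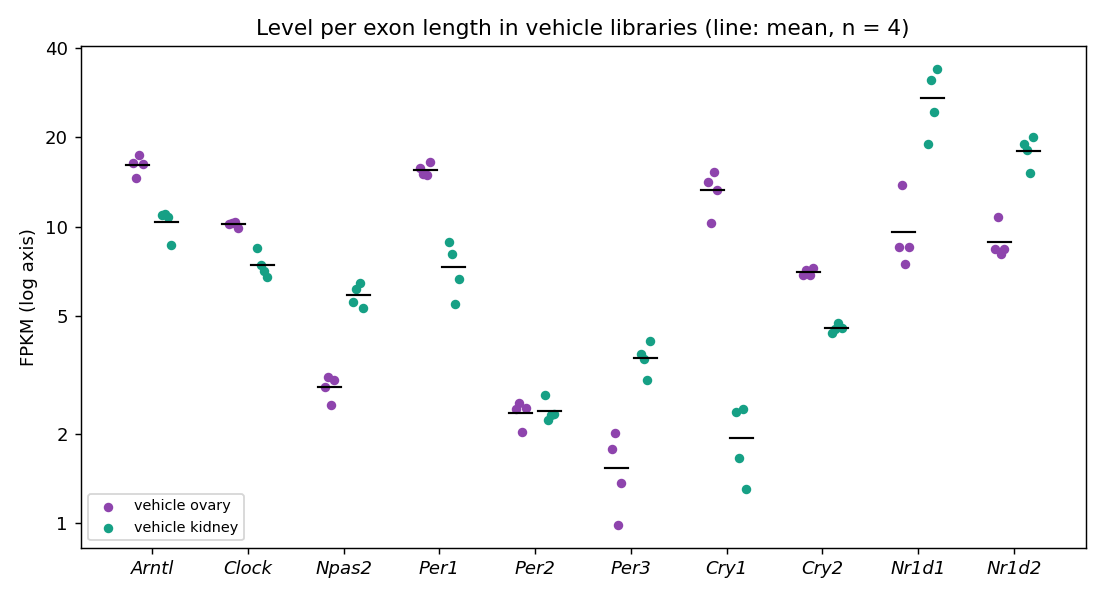
Levels of the 10 core clock genes in the 4 vehicle ovary libraries (purple) and 4 vehicle kidney libraries (green), in FPKM on a log axis, with black lines at the means. Cry1 lies at 13.3 FPKM in ovary and 1.94 in kidney, Nr1d1 at 9.62 and 27.2, and Per2 overlaps between organs.

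In ovary, Arntl and Cry1 read higher in every PT-2385 library than in any vehicle library, the REV-ERB genes read lower on average, and Clock, Npas2 and Cry2 had log2 fold changes within 0.03 of 0, but no member was called over all genes. From here values are CPM scaled by TMM within the organ. By edgeR's quasi-likelihood test with Benjamini-Hochberg adjustment, 0 of 10 members were called at an adjusted p under 0.05, against 0.0497% of all 18125 genes tested (9 genes). At an unadjusted p under 0.05 there were 4 of 10 members (Arntl, Per1, Cry1 and Nr1d2), against 13.1% of all genes. DESeq2 called 1 member, Arntl, and limma-voom called 0. Groups did not overlap for 2 of 10 members, against 6.95% of all genes. The members' median log2 fold change was -0.01, with 5 above and 5 below 0, where that of all genes was -0.0028. In whole organs, fewer cells of a type and less RNA per cell cannot be told apart.

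Arntl (GRCm39 chr7:112806672-112913333, plus strand), the obligate partner of both CLOCK and NPAS2, read 54.8, 48.9, 57.8 and 54.5 CPM in the vehicle ovaries and 67.3, 65.5, 72.5 and 65.5 CPM in the PT-2385 ovaries. The lowest treated library thus lay above the highest vehicle library. Its log2 fold change was 0.33 (SE 0.067, 25.4% higher), with an adjusted p of 0.0911 by edgeR, 0.107 by limma-voom and 0.00656 by DESeq2, higher than the vehicle mean in 4 of 4 treated libraries. Without ovary vehicle replicate 3, the library low in Malat1, edgeR's adjusted p was 0.0205 (log2 fold change 0.36). Over all 17 alternatives it ran from 0.00656 to 0.427, with 3 calls, and the log2 fold change from 0.28 to 0.36.

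The other activators differed by less than the spread between libraries. Clock, whose protein is the more widely studied partner of BMAL1, read 106 to 111 CPM in vehicle and 101 to 119 CPM in PT-2385 ovaries, with a log2 fold change of 0.01 (SE 0.066). Npas2 read 11.4 to 14.3 CPM and 11.7 to 14.2 CPM, with a log2 fold change of 0.03 (SE 0.099).

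Cry1, a CRY repressor with an E-box and AACGTG in the promoter stretch above, read 46.2, 33.8, 49.3 and 43.6 CPM in vehicle and 53.2, 50.8, 59.9 and 51.7 CPM in PT-2385 ovaries, so its groups did not overlap either. The log2 fold change was 0.32 (SE 0.104, edgeR adjusted p = 0.241), 0.39 (adjusted p = 0.0485) without ovary vehicle replicate 3, and 0.22 (adjusted p = 0.406) without vehicle replicate 2. Over 17 alternatives Cry1 was called in 2, with adjusted p from 0.0469 to 0.673. Its relative Cry2 read 32.2, 33.8, 31.9 and 34.0 CPM in vehicle and 40.4, 31.0, 34.2 and 24.7 CPM in PT-2385 ovaries, a log2 fold change of -0.03 (SE 0.118) with a wider spread in the treated group.

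The 3 PER genes, repressors that partner the CRY proteins, differed in sign in ovary. Per1, a direct target of hormone and cyclic AMP signals, read 95.6, 92.4, 89.8 and 101 CPM in vehicle and 120, 111, 117 and 91.7 CPM in PT-2385 ovaries. Of the treated libraries 3 lay above all vehicle libraries and replicate 4 among them, and the log2 fold change was 0.22 (SE 0.083, edgeR adjusted p = 0.310). Per2 had a log2 fold change of -0.19 (SE 0.113) and Per3 one of -0.31 (SE 0.199), both with overlapping groups. Per2 ran from -0.27 without PT-2385 replicate 1 to -0.11 without PT-2385 replicate 4, and Per3 from -0.47 without vehicle replicate 3 to -0.14 without vehicle replicate 2. Per3, the least abundant member, ranged from 6.33 to 13.2 CPM within the vehicle group alone.

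Nr1d1 and Nr1d2 encode REV-ERBα and REV-ERBβ, the repressors of Arntl. Nr1d1 read 25.1, 41.1, 21.8 and 25.1 CPM in vehicle and 20.8, 24.2, 15.1 and 22.8 CPM in PT-2385 ovaries. Nr1d2 read 42.2, 54.6, 40.2 and 42.6 CPM in vehicle and 38.1, 41.1, 31.0 and 36.1 CPM in PT-2385 ovaries. In both genes vehicle replicate 2 stood highest, PT-2385 replicate 3 stood lowest, and the groups overlapped. The log2 fold change of Nr1d1 was -0.45 (SE 0.211, edgeR adjusted p = 0.409) and that of Nr1d2 was -0.30 (SE 0.108, adjusted p = 0.287). Without ovary vehicle replicate 2 they were -0.21 and -0.19. Of the exon length of Nr1d1, 263 bases (9.67%) overlap Thra on the opposite strand. With no strand or multi-overlap option recorded, featureCounts leaves read pairs that overlap both genes out of both counts.

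**Figure D2:**
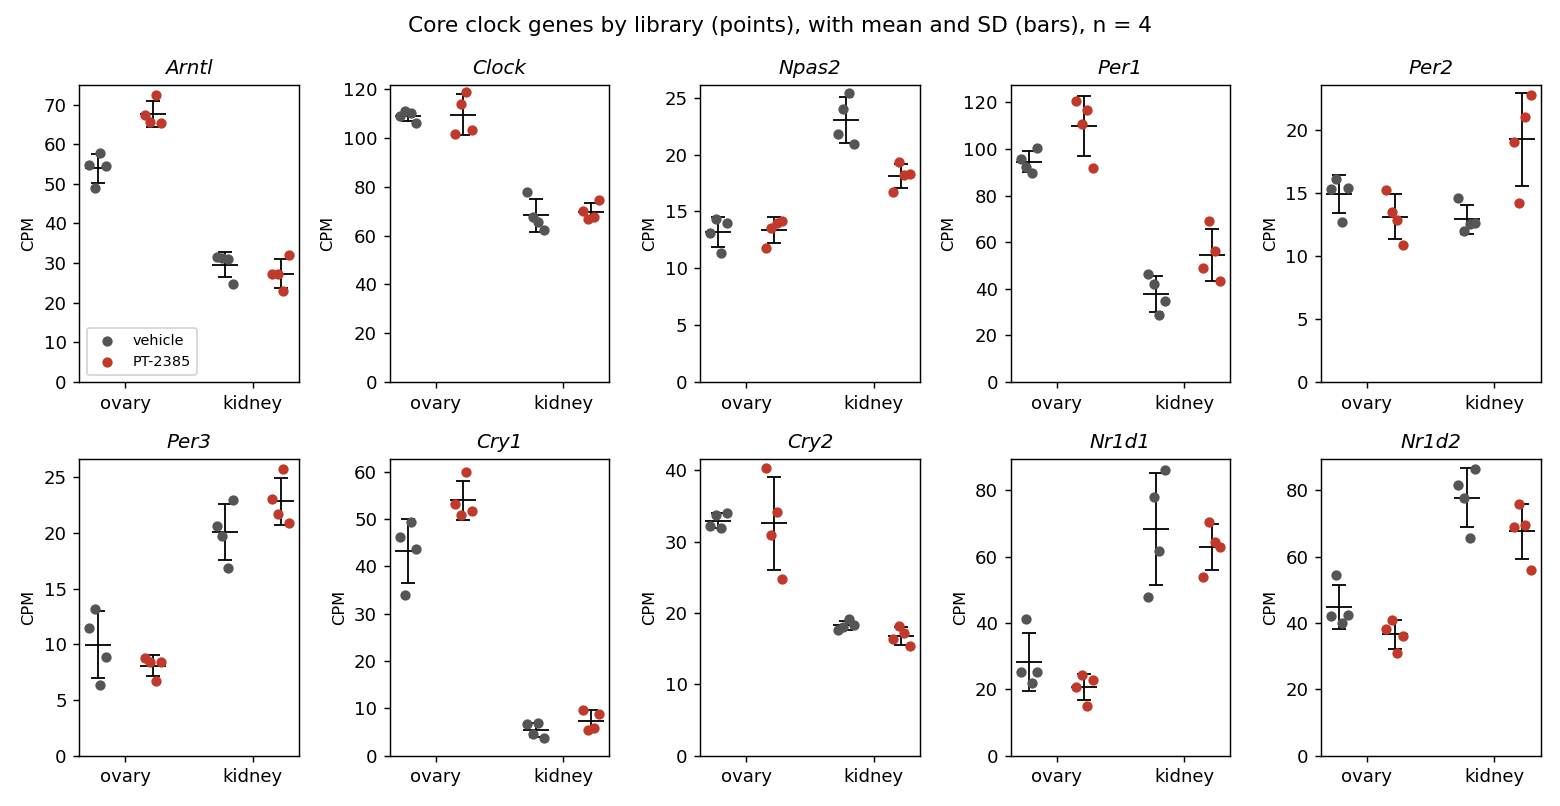
CPM of each core clock gene in every library (points), vehicle in grey and PT-2385 in red, with the mean and SD of 4 libraries. Arntl and Cry1 separate by treatment in ovary, Npas2 in kidney, and treated kidneys reach 14.2 to 22.8 CPM for Per2.

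In kidney other members were called: Per2 rose and Npas2 fell, while Arntl, Clock and both REV-ERB genes were not called. The edgeR test called 2 of 10 members, 1 in each direction, against 5.81% of all 17763 genes tested (355 higher and 677 lower). At an unadjusted p under 0.05 there were 4 of 10 members (Npas2, Per1, Per2 and Per3), against 23.4% of all genes. DESeq2 and limma-voom each called 2 as well. The groups did not overlap for 1 of 10 members, Npas2, against 13.3% of all genes. The members' median log2 fold change was -0.04, with 5 above and 5 below 0, and that of all genes was 0.0062. Signs of RNA quality separated by treatment as well: the mitochondrial share of reads was 10.06% to 11.67% in vehicle and 11.74% to 12.58% in PT-2385 kidneys. The summed level of the nuclear RNAs Malat1, Neat1 and Kcnq1ot1 was 2394 to 2635 CPM and 2654 to 2881 CPM before TMM scaling. By edgeR 0 of these 3 RNAs were called and 1 had an unadjusted p under 0.05, Kcnq1ot1 (log2 fold change 0.28, adjusted p = 0.0666), with Neat1 at 0.31 and Malat1 at 0.01. The part of these values in the kidney results was not tested.

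Per2 (chr1:91343704-91387046, minus strand), a PER repressor that also answers to glucocorticoids, read 14.6, 12.0, 12.5 and 12.6 CPM in vehicle kidneys and 19.0, 14.2, 21.0 and 22.8 CPM in PT-2385 kidneys. Of the treated libraries 3 lay well above the vehicle range, and replicate 2, the shallowest library, fell inside it. The gene rose by a log2 fold change of 0.61 (SE 0.114, 1.52-fold, edgeR adjusted p = 0.0109), with 4 of 4 treated libraries above the vehicle mean. Npas2 (chr1:39233293-39402317, plus strand), the alternative partner of BMAL1, read 21.8, 24.0, 25.4 and 20.9 CPM in vehicle and 16.7, 19.3, 18.2 and 18.3 CPM in PT-2385 kidneys. All treated libraries lay below all vehicle libraries, and the gene fell by 0.35 on the log2 scale (SE 0.074, 21.5% lower, adjusted p = 0.0145). Neither call held without kidney vehicle replicate 2 (adjusted p = 0.0516 for Per2 and 0.0545 for Npas2) or without kidney PT-2385 replicate 3 (0.0528 and 0.0579).

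The other PER genes read higher in treated kidneys without passing the test. Per1 read 46.3, 41.9, 28.7 and 34.7 CPM in vehicle and 49.1, 69.0, 56.4 and 43.2 CPM in PT-2385 kidneys, with 4 of 4 treated libraries above the vehicle mean but overlapping groups. Its log2 fold change was 0.51 (SE 0.196, edgeR adjusted p = 0.182). For Per3 the log2 value was 0.19 (SE 0.089, adjusted p = 0.202).

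Arntl read 31.4, 31.3, 30.9 and 24.8 CPM in vehicle and 27.2, 27.2, 23.0 and 31.9 CPM in PT-2385 kidneys, a log2 fold change of -0.12 (SE 0.100, edgeR adjusted p = 0.511). The groups overlapped, with 1 low vehicle library and 1 high treated library, and the value ran from -0.21 without PT-2385 replicate 4 to -0.03 without PT-2385 replicate 3. Clock had a log2 fold change of 0.03 (SE 0.064). Cry1, scarce in kidney at 3.65 to 9.73 CPM, had one of 0.46 (SE 0.255, adjusted p = 0.319), and Cry2 one of -0.13 (SE 0.069, adjusted p = 0.283).

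The REV-ERB genes varied widely between kidneys of one group. Nr1d1 read 47.9, 77.9, 61.6 and 85.9 CPM in vehicle and 53.8, 70.5, 64.3 and 62.9 CPM in PT-2385 kidneys (log2 fold change -0.12, SE 0.192, or -0.26 without vehicle replicate 1 and 0.004 without vehicle replicate 4). Nr1d2 read 81.8, 77.6, 65.5 and 86.4 CPM in vehicle and 69.0, 75.8, 69.7 and 56.1 CPM in PT-2385 kidneys (log2 fold change -0.21, SE 0.100, edgeR adjusted p = 0.241). All treated libraries lay inside the vehicle range for Nr1d1, and for Nr1d2 PT-2385 replicate 4 lay below it.

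**Figure D3:**
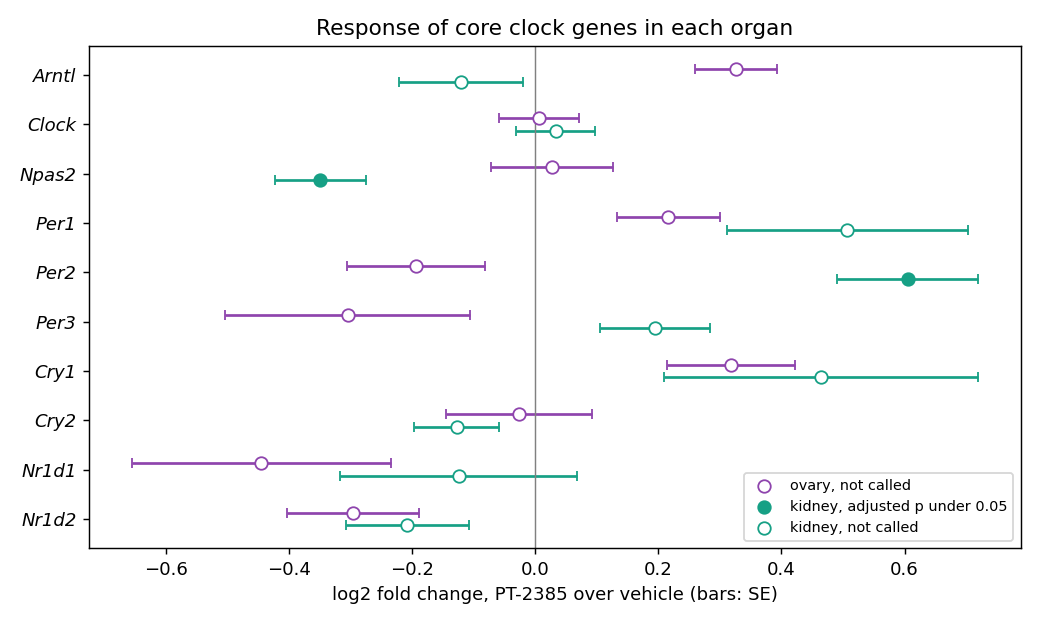
Log2 fold change of each core clock gene, PT-2385 over vehicle, with SE bars, in ovary (purple) and kidney (green). Filled points mark the 2 calls at an adjusted p under 0.05, Per2 at 0.61 and Npas2 at -0.35, both in kidney.

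Whether the organs responded differently was tested as the ovary response minus the kidney response over all 16 libraries. By edgeR 0 of 10 members were called, against 0.16% of all 19977 genes, and 3 of 10 (Per2, Arntl and Npas2) had an unadjusted p under 0.05, against 11.8% of all genes. DESeq2 called 1, Per2 (adjusted p = 0.00651), and limma-voom called 0. The difference for Per2 was -0.78 (SE 0.176, edgeR adjusted p = 0.0757), from -0.19 in ovary and 0.61 in kidney. For Arntl it was 0.46 (SE 0.127, adjusted p = 0.141), and for Npas2 it was 0.40 (SE 0.124, adjusted p = 0.210). Without ovary vehicle replicate 3, Arntl (adjusted p = 0.0340), Per2 (0.0144) and Per3 (0.0452) were called. In the fit of all libraries Per3 had a difference of -0.48 (SE 0.232, adjusted p = 0.432), Nr1d1 -0.30 (SE 0.305) and Per1 -0.27 (SE 0.199). For Cry1, Clock, Nr1d2 and Cry2 the differences were -0.13 (SE 0.276), -0.01 (SE 0.098), -0.07 (SE 0.154) and 0.12 (SE 0.143).

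The balance of activators against repressors was taken per library as the mean log2 CPM of the 3 activators minus that of the 7 repressors. In ovary it ran from 0.34 to 0.63 in vehicle and from 0.48 to 0.89 in PT-2385 libraries, 0.21 higher on average. In kidney it ran from 0.39 to 0.70 in vehicle and from 0.12 to 0.39 in PT-2385 libraries, a mean difference of -0.33. The groups overlapped in both organs. Some single ratios separated the groups. In ovary, log2 Arntl minus log2 Nr1d1 was 0.25 to 1.40 in vehicle and 1.44 to 2.26 in PT-2385 libraries. The difference of 0.75 was 0.51 without vehicle replicate 2. Arntl minus Nr1d2 differed by 0.62 in ovary, also without overlap. The same ratios differed by -0.03 and 0.09 in kidney, with overlap. Kidney Arntl minus Per2 was 0.97 to 1.38 in vehicle and 0.13 to 0.94 in PT-2385 libraries, a difference of -0.67 without overlap. In ovary Arntl minus Per2 was 1.60 to 2.18 in vehicle and 2.14 to 2.58 in PT-2385 libraries, a difference of 0.51 with overlap. These ratios describe the libraries and were not tested, since the members were chosen with earlier results known.

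In ovary the libraries low in Arntl were also low in Cry1 and high in the REV-ERB genes. Vehicle replicate 2 had the lowest Arntl (48.9 CPM) and Cry1 (33.8 CPM) of the 8 ovaries and the highest Nr1d1, Nr1d2 and Per3, and PT-2385 replicate 3 had the highest Arntl (72.5 CPM) and Cry1 (59.9 CPM) and the lowest Nr1d1 and Nr1d2. Because Arntl separated by treatment, the correlation was taken over deviations of log2 CPM from the group means of the 8 libraries. A pooled r would also hold the difference between treatments. None is given here for the members, but their ranks in ovary below, given as a description, rest on a pooled r. Pearson's r with Arntl was 0.973 for Cry1 (two-sided exact permutation p = 0.00347, rho 0.952, exact p = 0.00694), -0.989 for Nr1d1 (p = 0.00694, rho -0.952, p = 0.0156) and -0.934 for Nr1d2 (p = 0.0122, rho -0.929, p = 0.0226). Adjusted over the 18 relations given in both organs, the exact p of each of these 3 Pearson coefficients was 0.0547, and those of the rank coefficients were 0.125, 0.135 and 0.135, so none of these within-group relations passed. Without the 2 libraries farthest from the median of Arntl the coefficients were 0.970, -0.967 and -0.803. Per3 had r = -0.840 (exact p = 0.0278, adjusted 0.100, rho -0.643, exact p = 0.106), and -0.744 without the 2 libraries. Vehicle replicate 2 also had the highest mitochondrial share of the ovaries, 4.45% of reads against 2.33% to 3.57%, and the highest Malat1 (1956 CPM, the others 629 to 1416) and Neat1 (226 CPM, the others 54.8 to 145). The part of these values in the pattern was not tested.

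In kidney, vehicle replicate 4 had the lowest vehicle value of Arntl (24.8 CPM) and Cry1 (3.65 CPM) and the highest of Nr1d1 (85.9 CPM), Nr1d2 (86.4 CPM) and Per3 (23.0 CPM). Over the 8 kidney libraries Arntl had r = -0.803 with Per3 (exact permutation p = 0.0115, adjusted p = 0.0547, rho -0.738, exact p = 0.0458, adjusted 0.206), and -0.582 without the 2 farthest libraries. With Nr1d1 r was -0.322 (exact p = 0.430, rho -0.357, exact p = 0.389), and with Nr1d2 it was -0.297 (exact p = 0.479, rho -0.238, exact p = 0.582). With Cry1 it was 0.361 (exact p = 0.376, rho 0.310, exact p = 0.462). Taken over deviations from the group means, as in ovary, the kidney r were -0.783 for Per3 (exact p = 0.0556), 0.672 for Cry1 (exact p = 0.115), -0.628 for Nr1d2 (exact p = 0.139) and -0.418 for Nr1d1 (exact p = 0.313). The lowest of their adjusted exact p was 0.200. Without the 2 farthest libraries these r were -0.255, 0.267, -0.699 and 0.024. Whether the relations differ between the organs was not tested. For all 10 members, no relation between libraries that share a number in ovary and kidney passed (lowest adjusted exact p over the 10 relations 0.839).

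**Figure D4:**
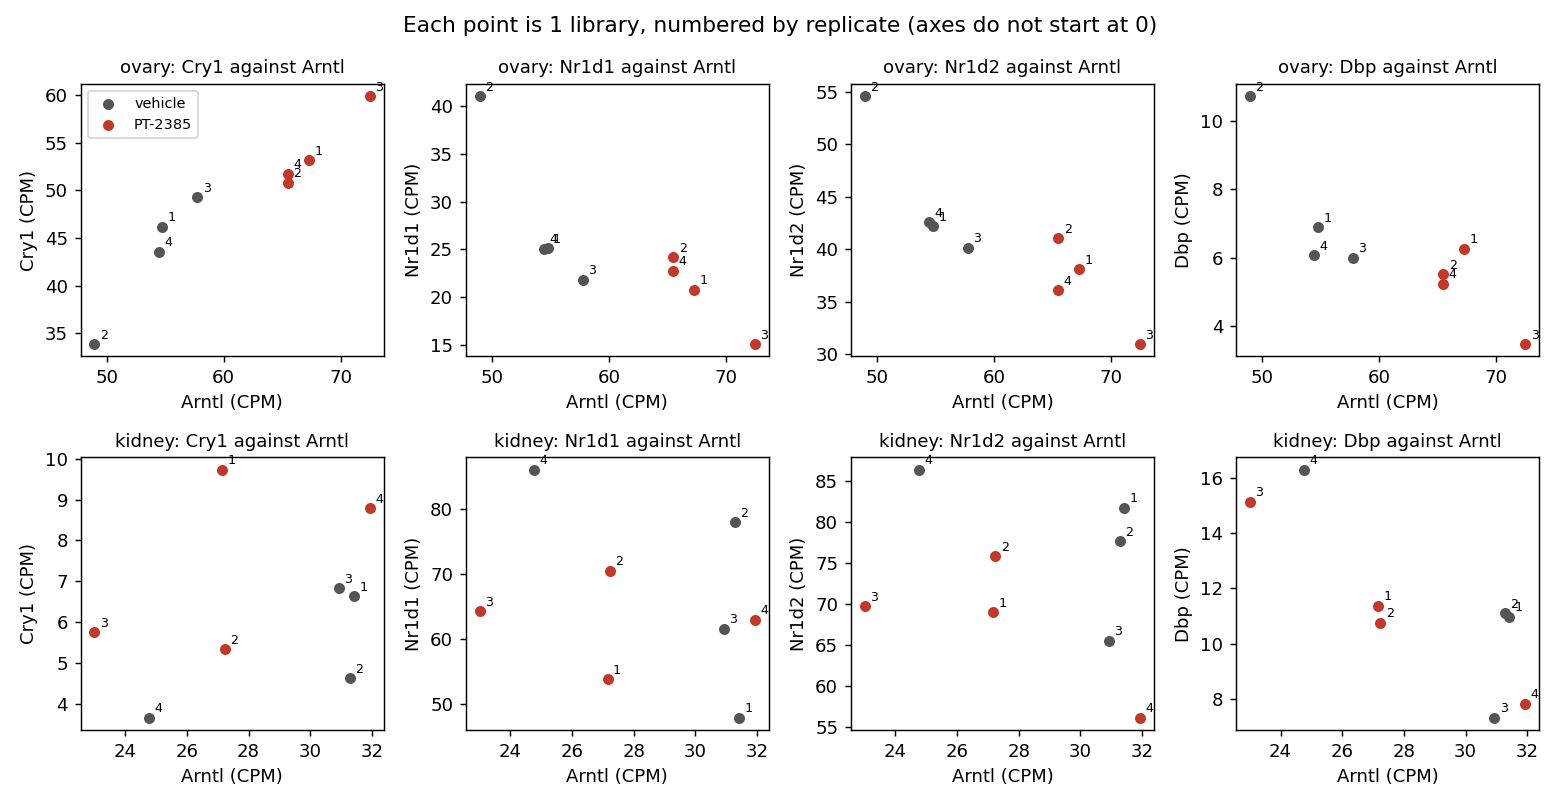
Cry1, Nr1d1, Nr1d2 and Dbp against Arntl, in CPM, in ovary (top) and kidney (bottom), with each point 1 library numbered by replicate and axes that do not start at 0. In ovary Cry1 is high and the other 3 genes are low where Arntl is high, with vehicle replicate 2 at one end (48.9 CPM Arntl) and PT-2385 replicate 3 at the other (72.5 CPM).

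Among genes with a mean of at least 5 CPM, ranked by r with Arntl over the 8 libraries of an organ as a description, the highest in ovary were Pprc1 (0.991), Zfat (0.990), Fasn (0.990), Srgn (0.977) and Qtrt2 (0.975), and the lowest were Haghl (-0.987), Cdk5rap3 (-0.987), Mppe1 (-0.985), Lyn (-0.982) and Samd9l (-0.982). These r include the difference between treatments, since the Arntl groups did not overlap. Of 11213 ranked genes, Cry1 stood 98th from the top and Bhlhe40, a repressor of the E-box, 93rd, while Nr1d2 stood 246th, Dbp 509th and Nr1d1 519th from the bottom. The other members lay further from the ends. Per1 stood 1985th, Clock 5474th, Cry2 6211th and Npas2 6656th from the top, and Per3 1668th and Per2 2147th from the bottom. In kidney the highest were Parp1 (0.962), Adck1 (0.931), D2hgdh (0.916), Aaed1 (0.911) and Srp68 (0.907), and the lowest Tcf3 (-0.962), Nagk (-0.902), Rbpms (-0.902), Grk4 (-0.902) and Rara (-0.881). Of 11224 genes there, Nfil3 stood 31st from the top, and Dbp stood 33rd and Per3 40th from the bottom. The other members in kidney lay further from the ends. Clock stood 990th, Npas2 1506th and Cry1 2593rd from the top. From the bottom, Per1 stood 2251st, Nr1d1 2446th, Nr1d2 2671st, Per2 3504th and Cry2 4472nd. Depth differed between the libraries, as organ composition may have, and both can enter r.

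The wider clock was read from a list of 31 further genes: 11 transcription factors, 14 regulators such as kinases and ubiquitin ligases, and 6 outputs. In ovary 0 of 31 were called by edgeR, 5 (16.1%) had an unadjusted p under 0.05, against 13.1% of all genes, and the median log2 fold change was 0.07. Dbp, an output factor driven by BMAL1 through E-boxes, read 6.89, 10.7, 6.0 and 6.07 CPM in vehicle and 6.26, 5.51, 3.47 and 5.24 CPM in PT-2385 ovaries. As with the REV-ERB genes, vehicle replicate 2 was highest and PT-2385 replicate 3 lowest, and the log2 fold change was -0.55 (SE 0.216, edgeR adjusted p = 0.324). Of its exon bases 29.3% overlap Sphk2 on the other strand, where read pairs that overlap both genes are likewise not counted. Its relative Tef had -0.17 (SE 0.070, adjusted p = 0.330) without overlap of groups. Nfil3, the D-box repressor, had 0.17 (SE 0.127), Ciart, a repressor of the activators, 0.23 (SE 0.126), and Bhlhe41 0.03 (SE 0.195). Bhlhe40, its close relative, had 0.44 (SE 0.130, adjusted p = 0.214), with groups that did not overlap. The groups of Ciart and of Csnk1e (0.14, SE 0.064, adjusted p = 0.390) did not overlap either, both higher in PT-2385 ovaries. Groups thus did not overlap for 4 of the 31, against 6.95% of all genes.

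In kidney 2 of the 31 were called by edgeR, a share near the 5.81% of all genes, and the median log2 fold change was -0.05. At an unadjusted p under 0.05 there were 13 of 31 (41.9%), against 23.4% of all genes. Noct, a rhythmic phosphatase of NADPH, read 12.7, 14.4, 14.4 and 15.5 CPM in vehicle and 19.1, 18.8, 22 and 19.4 CPM in PT-2385 kidneys. The groups did not overlap, and Noct rose by a log2 fold change of 0.49 (SE 0.078, 1.40-fold, edgeR adjusted p = 0.00462). Rora, the activating receptor at the ROR element of Arntl, read 54.9, 55.2, 46.5 and 48.4 CPM in vehicle and 40.8, 45.3, 36.9 and 32.0 CPM in PT-2385 kidneys. It fell by 0.42 on the log2 scale (SE 0.094, adjusted p = 0.0261), again without overlap, and was not called without kidney vehicle replicate 1 (adjusted p = 0.0725) or 2 (0.0838) or PT-2385 replicate 3 (0.0936) or 4 (0.0524). Dbp (0.00, SE 0.289), Tef (-0.11, SE 0.059), Nfil3 (0.09, SE 0.171), Ciart (0.32, SE 0.144) and Bhlhe41 (0.56, SE 0.195, adjusted p = 0.0973) were not called.

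Signals that reach the PER genes from outside the loop were read from 5 genes induced by glucocorticoids and 6 immediate early genes. In kidney 2 of the 5 glucocorticoid-induced genes rose and 0 of 6 immediate early genes were called by edgeR, with 2 of these at an unadjusted p under 0.05. Of all kidney genes 5.81% were called and 23.4% had an unadjusted p under 0.05. Sgk1, a kinase of sodium transport, read 120, 102, 115 and 94.1 CPM in vehicle and 138, 143, 154 and 160 CPM in PT-2385 kidneys, a log2 fold change of 0.46 (SE 0.072, edgeR adjusted p = 0.00466) without overlap. Tsc22d3, which encodes the glucocorticoid-induced leucine zipper GILZ, read 29.8, 37.8, 33.2 and 36 CPM in vehicle and 43.5, 38.5, 47.1 and 49.0 CPM in PT-2385 kidneys. It rose by 0.39 (SE 0.081, adjusted p = 0.0145), and was not called without PT-2385 replicate 3 (adjusted p = 0.0665) or 4 (0.0587) or in a fit of all 16 libraries (0.111). Fkbp5, another such gene, differed by 0.16 on the log2 scale (SE 0.140, adjusted p = 0.547). Klf9 went the other way, by -0.11 (SE 0.078, adjusted p = 0.415). Zbtb16 differed by 0.43 (SE 0.421, adjusted p = 0.599), at 5.52 ± 1.01 CPM (SD) in vehicle and 7.55 ± 4.53 CPM in PT-2385 kidneys. The part of these signals in the rise of Per2 was not tested.

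All 6 immediate early genes had log2 fold changes under 0 in kidney, with a median of -0.55, and none was called. Junb (-0.003, SE 0.074) and Crem (-0.06, SE 0.113) differed by less than their SE. Egr1 (-0.73, SE 0.430) and Nr4a1 (-0.68, SE 0.490) had the widest SE of the 6. Dusp1 had -0.44 (SE 0.136, edgeR adjusted p = 0.0948) and, with Fos, an unadjusted p under 0.05. Fos, the reference gene of that class, read 2.36, 4.21, 3.06 and 3.05 CPM in vehicle and 1.56, 3.14, 1.90 and 1.94 CPM in PT-2385 kidneys (-0.66, SE 0.203, edgeR adjusted p = 0.0636). In ovary 0 of the 11 input genes were called by edgeR, with 3 at an unadjusted p under 0.05, against 13.1% of all genes. These were Dusp1 (-0.52, SE 0.114, adjusted p = 0.116), Crem (0.22, SE 0.099, adjusted p = 0.370) and Sgk1. Groups did not overlap for 1 of the 11, Dusp1, against 6.95% of all genes. Sgk1 in ovary read 456, 541, 424 and 537 CPM in vehicle and 448, 432, 374 and 338 CPM in PT-2385 libraries (-0.30, SE 0.108, adjusted p = 0.285). The response of Sgk1 differed between organs, by -0.74 (SE 0.138, adjusted p = 0.0372), while Rora (0.49, SE 0.129, adjusted p = 0.122) and Noct (-0.28, SE 0.119, adjusted p = 0.350) were not called for such a difference.

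Of 7 tested kidney transport genes that the clock is known to drive, 1 was called, against 5.81% of all genes. Slc6a6, the taurine carrier, read 376, 375, 384 and 357 CPM in vehicle and 318, 332, 314 and 277 CPM in PT-2385 kidneys. It fell by 0.27 on the log2 scale (SE 0.054, edgeR adjusted p = 0.0116), and its adjusted p was 0.119 in a fit of all 16 libraries. Of 5 other bHLH-PAS genes, Epas1 among them, 0 were called in either organ by edgeR and 0 had an unadjusted p under 0.05. Of all genes 0.0497% were called in ovary and 5.81% in kidney. An unadjusted p under 0.05 was found for 13.1% of all genes in ovary and 23.4% in kidney. The 5 kidney markers were not called in kidney, with log2 fold changes from -0.33 to 0.19. The 6 ovary markers were not called in ovary, from -0.29 to 0.28. At an unadjusted p under 0.05 by edgeR there were 3 of the 5 kidney markers, against 23.4% of all genes. These were Umod (lower), Nphs1 and Slc12a3 (both higher). In ovary there were 2 of the 6 ovary markers, Foxl2 (lower) and Inha (higher), against 13.1% of all genes.

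**Figure D5:**
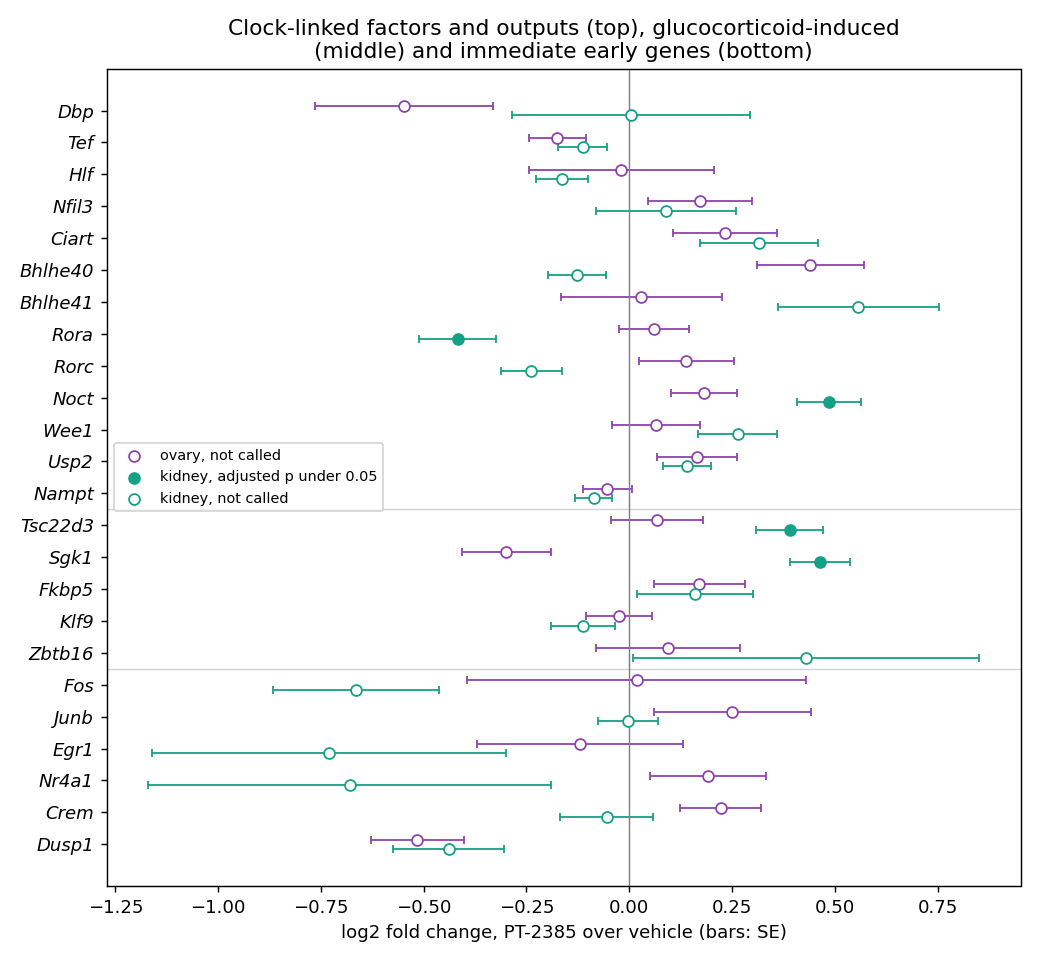
Log2 fold change with SE bars, PT-2385 over vehicle, of 24 genes linked to the clock: factors and outputs (top), glucocorticoid-induced genes (middle) and immediate early genes (bottom), in ovary (purple) and kidney (green). Filled points mark the calls, Rora at -0.42, Noct at 0.49, Tsc22d3 at 0.39 and Sgk1 at 0.46, all in kidney.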

How the data were processed

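The deposited values are counts of read pairs for each gene, which the authors made with featureCounts 2.0.6 on exons of the GENCODE vM27 basic annotation, with no strand or multi-overlap option recorded, per the file headers. The submitters' processing notes name FastQC, the aligner STAR and the genome GRCm39, with no version of these tools. Symbols came from GENCODE M21 and matched 94.1% of identifiers. Counts without a symbol made up 0.681% to 3.14% of a library.

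Each organ was fitted alone with edgeR 4.0.16 (R 4.3.3, robust quasi-likelihood, TMM scaling, filterByExpr with a minimum count of 10), with 6 residual degrees of freedom, and the interaction over 16 libraries with 12. Benjamini-Hochberg adjustment covered all genes tested, and calls were made under 0.05. An SE is the log2 fold change divided by the square root of F. CPM and FPKM were computed here from the counts, and log2 CPM used a prior count of 2. Alternatives used DESeq2 1.42.0, limma-voom 3.58.1, other scalings and filters, a replicate block and each library left out. The code was tested on simulated data.

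The members and all gene lists were chosen with earlier results of these data known. Text names all members, called genes of each list, set examples (Dbp, Tef, Nfil3, Ciart, Bhlhe41, Tsc22d3, Fkbp5, Fos, Epas1), and the 5 genes at each end of the ranking by r with Arntl. Bhlhe40, Csnk1e, Klf9, Zbtb16, Dusp1, the ovary values of Crem and Sgk1, and the ranks of Dbp and Nfil3 were chosen after they were seen.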

Additional observations from a re-analysis of the deposited data

Results flagged for a closer look

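In 5 of 92 groups of 4 libraries looked at, 1 library lay far from the other 3 by Dixon's criterion, where chance gives about 1 in 20, or 4.6. Of the 40 groups of core clock genes, 3 were of this kind. In ovary vehicle replicate 2, Nr1d1 stood at 41.1 CPM against 21.8 to 25.1 CPM in the other vehicle ovaries, and Nr1d2 at 54.6 CPM against 40.2 to 42.6 CPM. In kidney vehicle replicate 4, Arntl stood at 24.8 CPM against 30.9 to 31.4 CPM, and Nfil3, which ranks with Arntl in kidney, at 11.8 CPM against 15.5 to 16.1 CPM. Ciart stood at 2.20 CPM in kidney PT-2385 replicate 2, the shallowest library, against 2.8 to 2.88 CPM in the other treated kidneys.

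The response of Sgk1 differed between the organs by edgeR's interaction test, by -0.74 (ovary minus kidney, SE 0.138, adjusted p = 0.0372), from -0.30 in ovary and 0.46 in kidney. It was called in 14 of 25 alternatives, with adjusted p from 0.000284 to 0.121. It was not called when any of ovary vehicle replicates 1 and 4, ovary PT-2385 replicates 1, 2 and 3, kidney vehicle replicates 2, 3 and 4 or kidney PT-2385 replicates 1, 3 and 4 was left out.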

How the results depend on the processing

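Of 590 recomputed member values, 575 kept their side of the threshold, 11 gained a call, 4 lost one and no called value reversed. Of the uncalled values, 21 took the other sign: Clock, Npas2 and Cry2 in ovary, Clock and Nr1d1 in kidney, and the interaction of Clock, Cry1 and Nr1d2. The count of called genes in ovary, 9, was 322 by DESeq2, 3 by limma-voom, 63 with no filter, 5 with a filter at 1 CPM, 364 in a fit of all 16 libraries and 0 to 1060 with each library left out. Members called in ovary, 0, were 1 by DESeq2 and 0 to 2 with each library left out. In kidney the count of called genes, 1032, was 307 in a fit of all 16 libraries and 231 to 1403 with each library left out, and members called, 2, were 0 to 2. For the interaction the count of 32 was 20 with median-ratio scaling, 16 with upper-quartile scaling, 304 by DESeq2, 50 with no filter and 0 to 758 with each library left out. It was 344 without both libraries with deviating file names, an alternative chosen after seeing the data. Members called there, 0, were 1 by DESeq2, 0 to 3 with each library left out and 1 without both libraries. The replicate numbers did not meet the criterion for pairing, a correlation over 0.1 for every number (same-number correlations of deviations ran from -0.172 to 0.236 within organs and from -0.043 to 0.091 between them), and a replicate block gave 398 called genes and 2 members in ovary (Arntl, adjusted p = 0.0217, and Cry1, 0.0469), 1271 and 2 in kidney, and 51 and 0 for the interaction. Within each organ 2 of 4 numbers correlated best with their own number, looked at from both treatments. Between the organs 6 of 8 did by a looser criterion, looked at from the ovary only. These counts are a hint from the data and not from the design. The cause of these shifts was not tested. With 4 libraries a group, the SE of a member's log2 fold change, 0.064 to 0.255, limits what could be called.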
